A study of Mus musculus with 12 samples.

Results

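The genes described here encode neuropeptide precursors of the mouse brainstem: Calca and Calcb (calcitonin gene-related peptide, CGRP), Gal (galanin), Npy (neuropeptide Y), Cartpt (cocaine- and amphetamine-regulated transcript, CART), Cck (cholecystokinin), Nts (neurotensin), and Nmu (neuromedin U). They were taken by symbol, with earlier results of these data known, and are 8 of the 55418 genes in the count table. RNA came from the brainstem (medulla and pons) of 12 outbred CFW mice at postnatal day 15, with 1 library per mouse. Each treatment had 3 females and 3 males. Pups had been injected repeatedly with morphine or with saline since the neonatal period, and tissue was taken during spontaneous withdrawal from the last dose. The labels name no transgene or deletion. The saline mice shared the repeated injections and the behavioral testing.

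Neuropeptides are cut from larger precursors in the secretory pathway, stored in dense-core vesicles, and released by strong firing, after which they act on G protein-coupled receptors. In the brainstem, CGRP is known for the parabrachial nucleus and cranial motor neurons, galanin and neuropeptide Y for noradrenergic cell groups such as the locus coeruleus, and neurotensin, CART, and cholecystokinin for the nucleus of the solitary tract and parabrachial nucleus. These cell groups serve pain, visceral sensation, arousal, feeding, and breathing, and the locus coeruleus is well known for its activity in opioid withdrawal.

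Several neuropeptide genes are known targets of CREB, a transcription factor that binds a palindrome called the cAMP response element. Promoter windows, from 250 bases before to 50 bases after the start, were available from RefSeq (GRCm38.p6) for 7 of the 8 genes, Calcb being the exception. The full palindrome TGACGTCA was found in the Cartpt window alone, against 1.79% of all 32851 windows. Its 5-base core TGACG, read on both strands and thus also found within the palindrome, was present in 6 of the 7 windows (Calca, Gal, Cartpt, Cck, Nts, and Nmu, not Npy), against 20.8% of all windows. These matches describe letters and are not sites shown to be bound. Gal is printed whole because it was the one member that passed the test in males. Stretches of Cartpt and Cck are printed because they hold the palindrome or core and their levels varied with Gal across mice (r = 0.74 and 0.72). Npy varied with Gal as closely (r = 0.75) but holds no core, so no stretch of it is printed. None of these correlations with Gal passed after the offsets for GC content and exon length described below. Whether shared motifs go with shared variation was not tested. Capitals mark the palindrome or its core on either strand, and all 3 sequences read 5′ to 3′ on the minus strand, which is the strand of the gene.
Gal, chr19:3414495-3414794, core 19 bases after the start: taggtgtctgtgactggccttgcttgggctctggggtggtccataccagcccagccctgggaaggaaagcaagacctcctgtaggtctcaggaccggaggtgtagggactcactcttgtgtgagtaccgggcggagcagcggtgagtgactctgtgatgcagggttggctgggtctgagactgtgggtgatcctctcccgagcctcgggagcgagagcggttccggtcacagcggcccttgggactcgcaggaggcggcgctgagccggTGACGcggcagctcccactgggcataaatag
Cartpt, chr13:99900766-99900820: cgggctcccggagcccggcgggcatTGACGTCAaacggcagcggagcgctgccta
Cck, chr9:121495712-121495766: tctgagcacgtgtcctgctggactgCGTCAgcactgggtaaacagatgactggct

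Libraries held between 27850565 and 48097947 counts. All 8 hindbrain markers averaged at least 1 CPM. Slc6a5, the glycine transporter of brainstem and cord neurons, was at 468 to 636 CPM (counts scaled to the TMM-normalized library size) in the 12 libraries. Sensory-ganglion, hypothalamic, and lower-cord genes, which mark other sources of these peptides, were low: Scn10a did not exceed 0.237 CPM and Mrgprd 0.0640 CPM, the 6 hypothalamic markers together lay between 0.489 and 2.09 CPM, and the 7 thoracic and lumbar Hox genes together lay between 0.0297 and 0.585 CPM. The library labelled morphine male 6 carried Xist at 380 CPM, against at most 2.65 CPM in the other 5 males and 550 to 979 CPM in females, and it held the Y-linked Uty at 9.05 CPM, against at least 24.1 CPM in the other males. It was kept in its labelled group, and values without it are given for neuropeptide genes called in males, in the interaction, or between the sexes.

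The saline males stood apart from each other in base composition, and the male values are given below with this in view. GC balance was taken per library as the mean log2 deviation of the tenth of genes with the highest GC content (at least 57.8%) minus that of the tenth with the lowest (at most 42.1%). It was 0.90 in saline male 1 and 1.15 in saline male 2, but −1.02 in saline male 3. The other 9 libraries lay between −0.68 and 0.49. The transcripts of Cck (58.2% GC), Gal (54.7%), Npy (53.7%), Calca (53.4%), Cartpt (51.8%), and Calcb (51.0%) are GC-richer than most genes, whereas those of Nmu (45.9%) and Nts (39.4%) are GC-poorer.

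All 8 genes were detected in every library. Levels per kilobase of exon, the only scale on which genes can be compared with each other, ran from Nts down to Nmu. Nts, a peptide of analgesia and thermoregulation, was highest at 12.9 ± 2.33 CPM per kb (SD, n = 12). Npy followed at 8.35 ± 1.91 CPM per kb (SD, n = 12) and Calca at 7.89 ± 1.51 CPM per kb (SD, n = 12). Npy and Calca did not differ beyond their spread, as Npy was the higher of the pair in 7 of 12 mice. Gal was at 6.08 ± 1.85 CPM per kb (SD, n = 12) and Cck at 4.21 ± 1.16 CPM per kb (SD, n = 12). Cartpt at 2.69 ± 0.733 CPM per kb (SD, n = 12) and Calcb at 2.27 ± 0.416 CPM per kb (SD, n = 12) overlapped, with Cartpt above Calcb in 9 of 12 mice. Nmu was lowest at 1.30 ± 0.361 CPM per kb (SD, n = 12), below Calcb in 12 of 12 mice, and rested on only 20 to 55 reads per library. Cck was above Cartpt in 12 of 12 mice, Gal above Cck in 11, Calca above Gal in 11, and Nts above Npy in 10. Gal lies at chr19:3409915-3414544, Npy at chr6:49822710-49829507, Cartpt at chr13:99898489-99901091, Cck at chr9:121489824-121495694, and Nts at chr10:102481756-102490486 (GRCm38). Calca reads include both the calcitonin and the CGRP transcript of this gene, since counts were made per gene. Calca and Calcb are close paralogs on chromosome 7 (GRCm38; chr7:114631478-114636357 and chr7:114718643-114723365), so reads in their shared sequence can be assigned to either or lost. Exons of Nmu (chr5:76333495-76363788) overlap those of the antisense gene 4930432L08Rik, and the strand setting of the counting is not given in the sources used here.

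**Figure D1:**
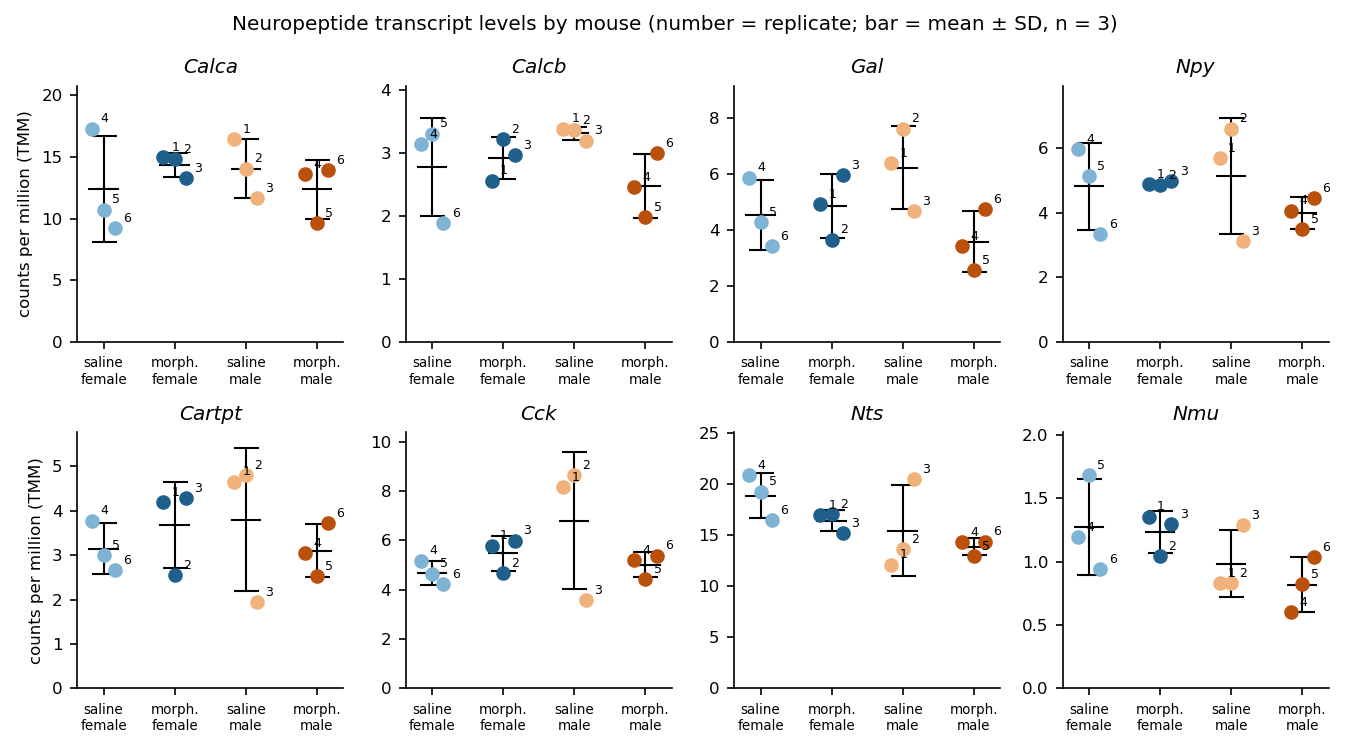
Level of each neuropeptide gene (y axis, CPM after TMM normalization, from 0) in each mouse, by treatment and sex. Points are mice labelled with their replicate number, and bars are the mean ± SD of 3 mice. Saline males 1 and 2 sit high for Gal, Npy, Cartpt, and Cck, and saline male 3 sits low for Npy, Cartpt, and Cck. For Gal, saline male 3 is below the other saline males but within the range of the morphine males. Nts has the reverse order among saline males, with saline male 3 high and saline males 1 and 2 low.

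To ask whether morphine changed these peptides in the brainstem irrespective of sex, the 6 morphine mice were compared with the 6 saline mice with sex as a covariate. None of the 8 genes was called, which took an unadjusted p below 0.05 together with a log2 fold change beyond ±0.26 in edgeR's quasi-likelihood fit (0 also at an unadjusted p under 0.05 alone and 0 with DESeq2), where 1.19% of the 18608 genes tested did. Gal was the furthest from 0. In saline mice it ranged from 3.43 to 7.62 CPM with a median of 5.27 CPM, and in morphine mice from 2.57 to 5.95 CPM with a median of 4.19 CPM. The groups overlapped, and the change of −0.35 on the log2 scale (SE 0.23, adjusted p = 0.9999 by edgeR) did not exceed the spread between mice. Nts ranged from 12.1 to 20.8 CPM (median 17.8) in saline mice and from 12.9 to 17.1 CPM (median 14.8) in morphine mice. Its log2 fold change was −0.18 (SE 0.13). Calca had a median of 12.8 CPM in saline and 13.8 CPM in morphine mice. Its log2 fold change was 0.01, and the interval of ±2 SE ran from −0.32 to 0.35. The intervals of all 8 genes included 0. The median log2 fold change over the 8 genes was −0.16, with 7 of 8 below 0, beside −0.02 over all genes tested. No members had groups that did not overlap, where 0.0376% of all genes did. Tissue markers moved in the same comparison, and their part in these values was not tested. Of the 8 hindbrain markers 6 were below 0 (median −0.18) and 2 fell, Hoxb2 (−0.47) and Hoxb4 (−0.33), and of the 5 cerebellar markers all were above 0 (median 0.72) and 3 rose (Gabra6, Cbln3, and Fat2).

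Fewer peptide neurons in the dissected tissue and less peptide mRNA per neuron cannot be told apart in bulk RNA, here or in the comparisons below.

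In females, no neuropeptide gene passed the test (0 of 8, also 0 at an unadjusted p under 0.05 alone and 0 with DESeq2), where 1.81% of 18109 genes did. Nts had the smallest p of the 8. It was at 20.8, 19.2, and 16.4 CPM in the saline females and at 16.9, 17.1, and 15.2 CPM in the morphine females. Saline females 4 and 5 were above every morphine female, but saline female 6 lay among them, and the log2 fold change of −0.21 (SE 0.12, adjusted p = 0.9998 by edgeR) did not pass. Without saline female 6 it was −0.29 (adjusted p = 1 by edgeR) and passed. Calca was at 17.3, 10.7, and 9.22 CPM in saline females and at 14.996, 14.8, and 13.3 CPM in morphine females. Saline female 4 was the highest of these 6 mice and the other saline females were the lowest. With saline female 4 included the log2 fold change of Calca was 0.20 (SE 0.21), and without it 0.51 (adjusted p = 0.582 by edgeR), a fit in which 1482 genes were called. Gal did not separate the female groups, at 5.87, 4.28, and 3.43 CPM in saline and 4.93, 3.65, and 5.95 CPM in morphine mice. The log2 fold change of Gal in females was 0.09 (SE 0.24). The log2 fold changes of Cck (0.22), Cartpt (0.22), Calcb (0.07), and Npy (0.02) were above 0, and that of Nmu (−0.05) below, all with intervals that included 0. The median over the 8 genes was 0.08, beside −0.01 over all genes tested, and none had groups that did not overlap, where 5.67% of all genes did. Tissue markers varied among females too, and their part in these values was not tested. Slc6a3, a ventral midbrain marker, was called (log2 fold change 1.84, SE 0.75, adjusted p = 0.9998 by edgeR). It was at 3.84 CPM in morphine female 3 and between 0.349 and 0.551 CPM in the other females. Choroid plexus sums were 8.02 to 464 CPM in saline and 27.9 to 162 CPM in morphine females, with none of 5 markers called.

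In males, Gal was the one neuropeptide gene of 8 that passed the test, where 2.99% of 18166 genes did. Galanin is an inhibitory peptide that noradrenergic neurons co-release. Gal stood at 6.37, 7.62, and 4.66 CPM in saline males 1, 2, and 3 and at 3.41, 2.57, and 4.73 CPM in morphine males 4, 5, and 6. Morphine males 4 and 5 were below every saline male, and morphine male 6 lay just above saline male 3, so the groups overlapped by this pair. The mean fell from 6.22 ± 1.48 CPM (SD, n = 3) to 3.57 ± 1.09 CPM (SD, n = 3). The log2 fold change of −0.83 (SE 0.30, adjusted p = 0.9999 by edgeR) ranked 287 by p among the genes tested. The call was lost without saline male 1 (log2 fold change −0.81), saline male 2 (−0.65), morphine male 4 (−0.79), or morphine male 5 (−0.58), each with an adjusted p of at least 0.9995 by edgeR. It was also lost with scaling by total counts (−0.70). It held without morphine male 6, the library with Xist, at a log2 fold change of −1.09 (adjusted p = 1 by edgeR). An exact permutation test over 3 against 3 mice cannot give a p below 0.1.

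Since Gal is GC-rich and the saline males differ in GC balance, the male values were recomputed with per-library loess offsets for GC content and exon length, an alternative chosen after seeing the data. Gal was then at 2.34, 2.54, and 2.63 log2 CPM in saline males 1, 2, and 3, and at 1.82, 1.43, and 2.10 log2 CPM in morphine males 4, 5, and 6. The groups no longer overlapped. The share of all genes without overlap is known only for values as counted (8.86% in males), so this separation has no background to be set against. The log2 fold change of Gal was −0.70 (adjusted p = 0.548 by edgeR) with the offsets, under which 1189 genes were called in males.

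The other 7 neuropeptide genes had log2 fold changes below 0 in males, and none passed the test. Calcb, the β-CGRP gene, was at 3.38, 3.35, and 3.19 CPM in saline males and at 2.45, 1.97, and 2.99 CPM in morphine males. Its groups did not overlap, as held for 8.86% of all genes in males. The log2 fold change of Calcb was −0.44 (SE 0.22, adjusted p = 0.9999 by edgeR), and −0.62 without morphine male 6, when it was called. Calca was at 16.4, 14.0, and 11.6 CPM in saline males and 13.6, 9.61, and 13.9 CPM in morphine males, with a log2 fold change of −0.21 (SE 0.22).

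Cck, a peptide of satiety signalling that opposes opioid analgesia, was at 8.15 and 8.64 CPM in saline males 1 and 2 but at 3.59 CPM in saline male 3, below all 3 morphine males (5.21, 4.44, and 5.38 CPM). Npy, which promotes feeding, was at 5.69, 6.62, and 3.13 CPM in saline males and 4.07, 3.49, and 4.46 CPM in morphine males. Cartpt, which restrains feeding, was at 4.65, 4.80, and 1.93 CPM in saline males and 3.05, 2.53, and 3.72 CPM in morphine males. For these 3 genes saline male 3 was the lowest of the 6 males and saline males 1 and 2 the highest, the order of the GC balance. The log2 fold changes with all 6 males were −0.47 for Cck (SE 0.34), −0.39 for Npy (SE 0.30), and −0.32 for Cartpt (SE 0.37). Without saline male 3, Cck (−0.74, adjusted p = 0.0274 by edgeR), Npy (−0.61, adjusted p = 0.0699), and Cartpt (−0.60, adjusted p = 0.110) were called along with Gal (−0.96, adjusted p = 0.0477), but 5341 genes were then called in all. With GC and length offsets none of these 3 was called, with Cck at −0.16, Npy at −0.25, and Cartpt at −0.22 on the log2 scale.

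Nts ran the other way among saline males, at 12.1 and 13.6 CPM in saline males 1 and 2 and at 20.5 CPM in saline male 3, with 14.3, 12.9, and 14.3 CPM in morphine males. The log2 fold change of Nts was −0.18 (SE 0.23) and turned to 0.11 without saline male 3. Nmu, a peptide with anorexigenic actions, was at 0.830, 0.832, and 1.29 CPM in saline males and at 0.599, 0.823, and 1.03 CPM in morphine males. Its log2 fold change was −0.28 (SE 0.33). The median log2 fold change over the 8 genes in males was −0.35, beside −0.06 over all genes tested.

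**Figure D2:**
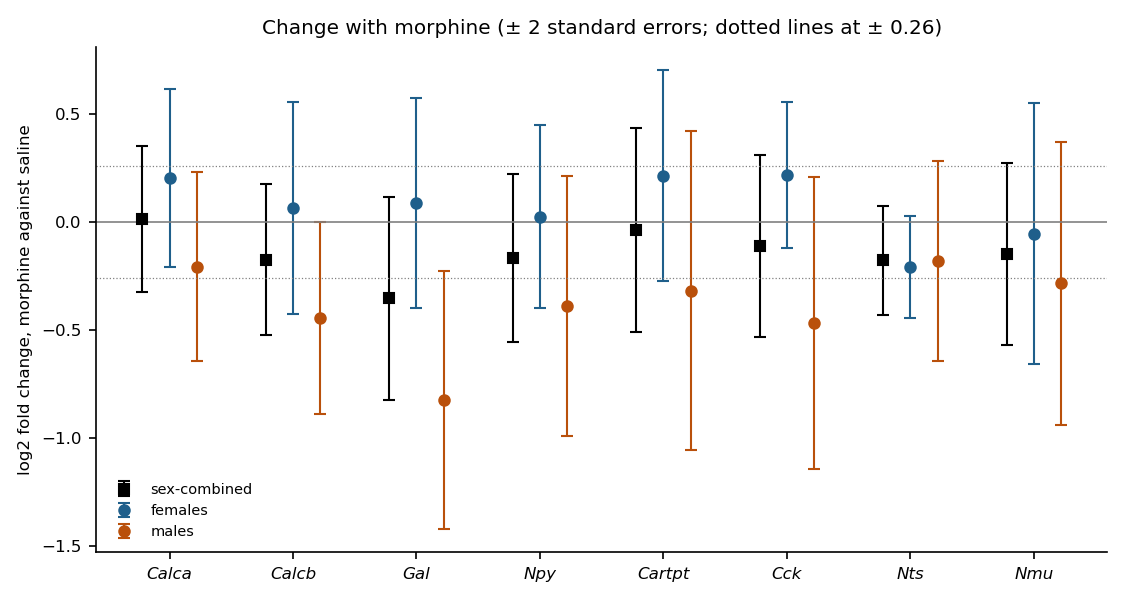
Log2 fold change of each gene with morphine (y axis) in the sex-combined, female, and male comparisons. Points are edgeR estimates, bars are ± 2 SE, and dotted lines mark ± 0.26. Only the male interval of Gal stays clear of 0 by a visible margin, with an estimate of −0.83.

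**Figure D3:**
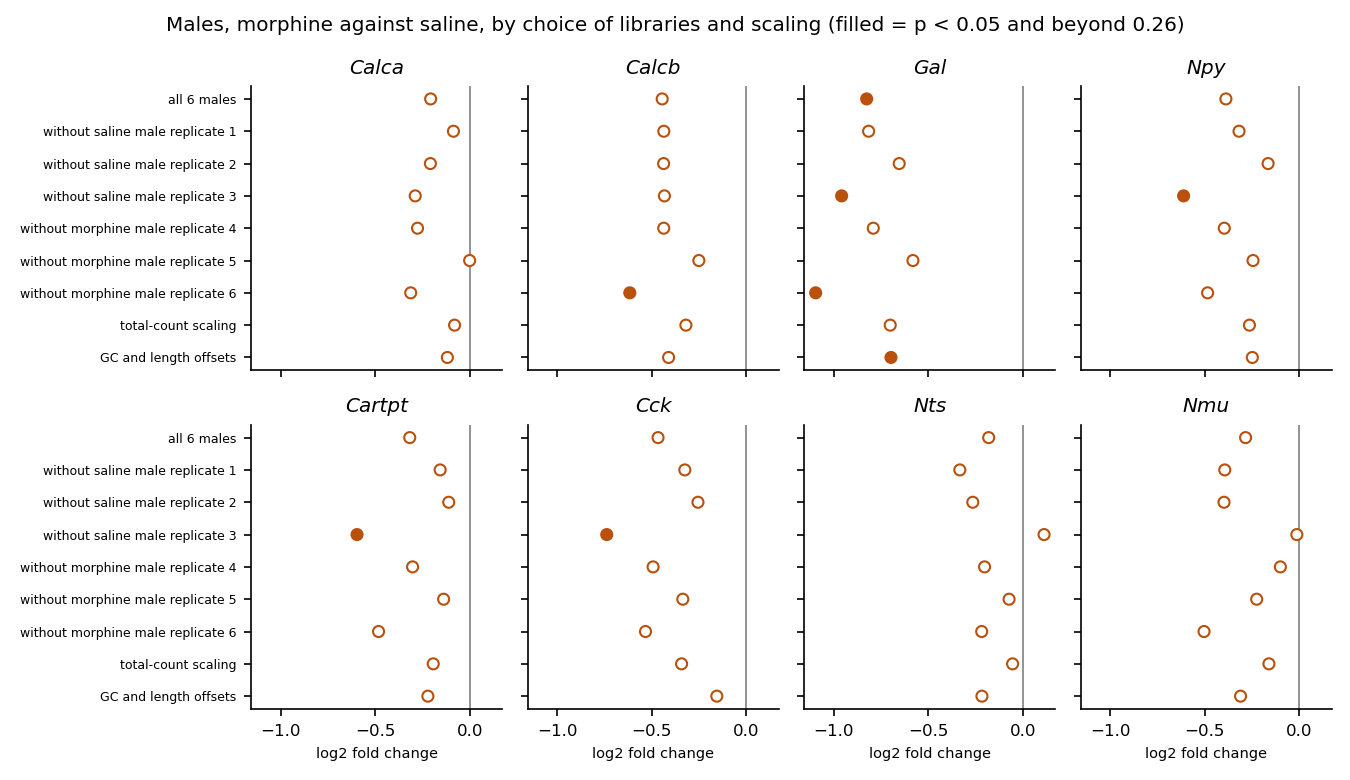
Male log2 fold change of each gene (x axis) with all 6 males, with each male left out, with total-count scaling, and with GC and length offsets (rows). Filled points passed the test. Gal stays below −0.58 in every row, and leaving out saline male 3 takes Npy, Cartpt, and Cck past the test and turns Nts to 0.11.

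Markers of neighbouring tissue moved with treatment in males, and their part in the Gal result was not tested. All 5 cerebellar markers were above 0 and 3 were called (Gabra6, Cbln3, and Fat2). The summed level of the list was 38.0 to 48.7 CPM in saline males and 49.8 to 105 CPM in morphine males. All 5 choroid plexus markers were above 0 and 3 were called (Folr1, Kl, and Otx2), with sums of 261 to 517 CPM and 410 to 828 CPM. Of 4 tested noradrenergic markers, from cells that can make galanin and neuropeptide Y, none passed, with 2 above 0 and 2 below. Slc6a2 was at 4.86, 3.20, and 4.88 CPM in saline males and at 4.91, 6.45, and 7.57 CPM in morphine males. Its groups did not overlap, as held for 8.86% of all genes in males. The noradrenergic list of 5 genes summed to 10.9 to 24.4 CPM in saline males and 16.8 to 26.8 CPM in morphine males. Sums of the sensory-ganglion list were 4.51 to 9.99 CPM and 5.89 to 8.25 CPM, with none of 3 tested genes called. Hindbrain markers had a median log2 fold change of −0.20 in males, with 7 of 8 below 0 and none called, and their sums were 554 to 670 CPM and 608 to 683 CPM. The 4 skeletal muscle markers summed to 22.1 CPM in saline male 2, the male with the highest Gal, and to at most 3.23 CPM in the other mice. Acta1 was at 10.8 CPM, Tnnt3 at 7.41 CPM, and Ckm at 3.39 CPM in saline male 2. Slc6a3, the ventral midbrain marker, was at 5.96, 0.149, and 0.583 CPM in saline males 1, 2, and 3. It was at 0.599, 0.757, and 6.80 CPM in morphine males 4, 5, and 6 (log2 fold change 0.29, SE 1.35, not called). Of the hypothalamic markers, Pomc was at 0.741, 1.195, and 0.276 CPM in saline males and 0.0299, 0.395, and 0.414 CPM in morphine males (log2 fold change −1.45, SE 0.78, not called), and the list summed to 1.17 to 2.09 CPM and 0.629 to 1.22 CPM.

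The difference between sexes in the response was tested as the interaction of treatment and sex over the 12 mice, coded as the male change less the female change. Gal was the one neuropeptide gene of 8 that passed, where 2.94% of 19027 genes did. Its change in males (−0.83) was lower than that in females (0.09), with an interaction of −0.90 (SE 0.41, adjusted p = 0.985 by edgeR). Leaving out 1 mouse kept the Gal interaction between −1.16 and −0.71, with −1.16 without morphine male 6, which was still called. The Gal interaction was past the threshold by little, and the call was lost in 8 of the 12 fits that left out 1 mouse (those without saline male 1 or 2, saline female 5 or 6, morphine female 1 or 3, or morphine male 4 or 5) and with scaling by total counts (−0.80). With GC and length offsets it was −0.72 (adjusted p = 0.812 by edgeR). Cck was next at −0.67 (SE 0.39). It reached −0.995 without saline male 3 (adjusted p = 0.0178 by edgeR), when Npy and Cartpt passed as well and 4695 genes were called in all, and −0.26 with GC and length offsets. Calca was at −0.39 (SE 0.33) and passed at −0.73 without saline female 4 (adjusted p = 0.797 by edgeR), when 952 genes were called in all. The intervals of the other genes included 0.

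Between the sexes, with treatment in the model, Nmu was the one neuropeptide gene that passed, where 3.94% of 18608 genes did. In the 6 females Nmu lay between 0.942 and 1.68 CPM with a median of 1.24 CPM, and in the 6 males between 0.599 and 1.29 CPM with a median of 0.831 CPM. The groups overlapped, with saline male 3 and morphine male 6 the highest males. The log2 difference of females minus males was 0.48 (SE 0.21, adjusted p = 0.734 by edgeR), and it stayed between 0.38 and 0.57 in the 12 fits that left out 1 mouse. The call was lost in 7 of those fits (saline male 1 or 2, saline female 5, morphine female 1 or 3, or morphine male 4 or 5). Without morphine male 6 the Nmu difference was 0.55 and called, and that of Nts 0.28 and not called. Choroid plexus markers moved with sex too, with all 5 lower in females and 3 of them called. Their sums were 8.02 to 464 CPM in females and 261 to 828 CPM in males, and their part in the Nmu result was not tested. The Nts difference of females minus males was 0.27 on the log2 scale (SE 0.13, adjusted p = 0.734 by edgeR) and did not pass, with levels between 15.2 and 20.8 CPM in females and between 12.1 and 20.5 CPM in males. Without saline male 3 the Nts difference was 0.36 (adjusted p = 0.0546 by edgeR) with 3947 genes called in all, and with GC and length offsets it was 0.20.

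Across the 12 mice, 9 of the 28 pairs of neuropeptide genes had a Pearson's correlation of log2 CPM with an adjusted permutation p under 0.05. Gal, Npy, Cartpt, and Cck correlated with each other in all 6 of their pairs, and the remaining pairs were Calca with Npy, Calcb with Gal, and Nts with Nmu. The strongest was Cartpt with Cck (r = 0.91 and rho = 0.94, each with permutation p = 1e-05, the smallest that 100000 resamples can give, and adjusted p = 0.00028, n = 12). It stayed at r = 0.88 without the pair of mice farthest from the median of Cartpt. Gal with Cartpt had r = 0.74 (permutation p = 0.0068, adjusted p = 0.0293) and rho = 0.84 (permutation p = 0.00118, adjusted p = 0.0165), and r = 0.67 without the farthest pair. Gal with Npy had r = 0.75 (permutation p = 0.00553, adjusted p = 0.0293) and rho = 0.76 (permutation p = 0.00593, adjusted p = 0.0309), and r = 0.60 without that pair. Within the 4 groups of treatment and sex, the 6 pairs of Gal, Npy, Cartpt, and Cck each gave the smallest exact p that permutation within groups allows (0.000772, adjusted p = 0.0036). Nts with Nmu had r = 0.70 (permutation p = 0.0107, adjusted p = 0.0334) and rho = 0.75 (permutation p = 0.00663, adjusted p = 0.0309), but within groups the exact p was 0.160.

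The same 4 genes followed the GC balance of the library. Cck lies in the tenth of genes with the highest GC content and Nts in the tenth with the lowest. Both were thus among the genes that define the balance, and their correlations with it are not independent of it. The share of all genes with such correlations was not taken. Over 12 mice and 8 genes tested, Cck had r = 0.95 with the GC balance (permutation p = 1e-05, adjusted p = 8e-05; rho = 0.92, permutation p = 9e-05, adjusted p = 0.00072). Cartpt had r = 0.88 (permutation p = 0.0001, adjusted p = 0.0004; rho = 0.87, permutation p = 0.00056, adjusted p = 0.00224). Npy had r = 0.79 (permutation p = 0.00234, adjusted p = 0.00624; rho = 0.69, permutation p = 0.0169, adjusted p = 0.0338). Without saline males 1 and 2, the farthest from the median, r was 0.88 for Cck, 0.84 for Cartpt, and 0.66 for Npy. Gal had r = 0.67 (permutation p = 0.0178, adjusted p = 0.0355; rho = 0.70, permutation p = 0.0143, adjusted p = 0.0338), which rested on those mice, as r was 0.35 without them. Nts ran opposite with r = −0.63 (permutation p = 0.028, adjusted p = 0.0448; rho = −0.58, permutation p = 0.0518, adjusted p = 0.0691), and −0.41 without them. Calca (r = 0.59, permutation p = 0.0423, adjusted p = 0.0563; rho = 0.59, permutation p = 0.0481), Calcb (r = 0.42, permutation p = 0.175; rho = 0.34, permutation p = 0.277), and Nmu (r = −0.35, permutation p = 0.271; rho = −0.32, permutation p = 0.309) did not pass.

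After the GC and length offsets, 2 of the 28 pairs passed, and neither was among the 9. They were Nts with Npy (r = 0.84, permutation p = 0.00047, adjusted p = 0.0132, against −0.11 as counted) and Nts with Gal (r = 0.80, permutation p = 0.00167, adjusted p = 0.0234, against 0.01 as counted). Cartpt with Cck fell from r = 0.91 to r = 0.61 (permutation p = 0.0383, adjusted p = 0.105). The offsets left all 28 correlations above 0, where 21 were as counted.

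**Figure D4:**
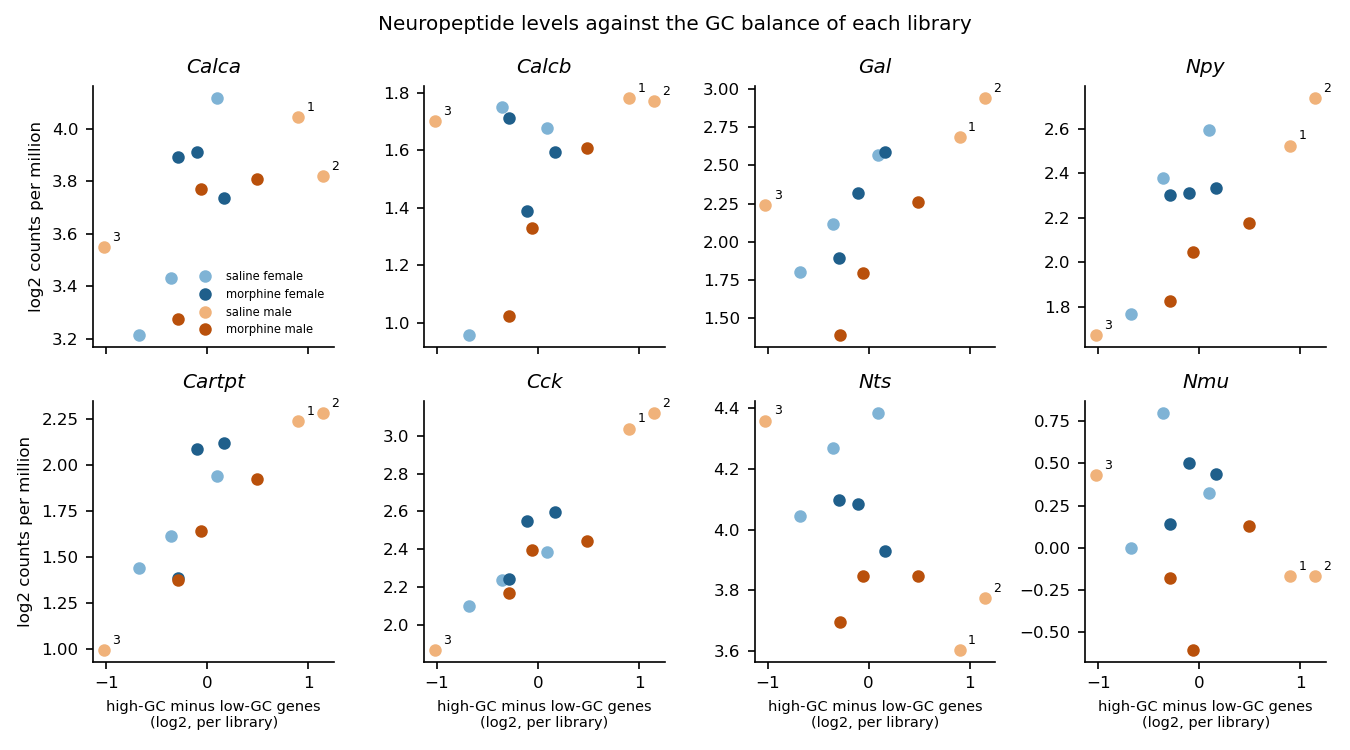
Level of each neuropeptide gene (y axes, log2 CPM) against the GC balance of the library (x axis, log2 deviation of high-GC minus low-GC genes). Points are mice coloured by group, and saline males are numbered. Saline males 1 and 2 (0.90 and 1.15) and saline male 3 (−1.02) are at the ends of the axis, and Cck rises along it (r = 0.95) while Nts falls (r = −0.63).

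**Figure D5:**
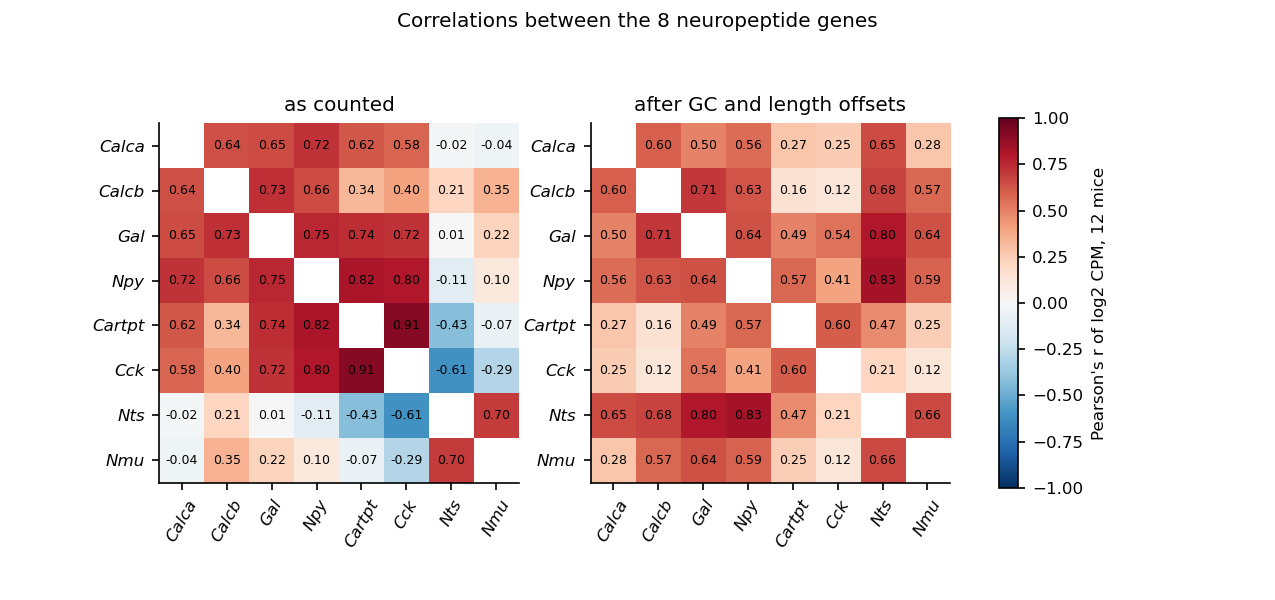
Pearson's r of log2 CPM between the 8 genes over 12 mice, as counted (left) and after GC and length offsets (right). The block of Gal, Npy, Cartpt, and Cck is lighter on the right, and Nts, which is near 0 or negative with these genes on the left, is positive with all of them on the right.

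Receptors of these peptides were detected, and 1 of them was called in a comparison of morphine with saline. None of the 19 receptor and receptor-activity genes tested, out of 22 listed, passed in the sex-combined or the female comparison, and 1 of 19 passed in males, beside 2.99% of all genes, where the list's median log2 fold change was −0.05. Of the receptor and receptor-activity genes, the highest per kilobase for neurotensin was Ntsr2 (45.2 ± 6.19 CPM per kb, SD, n = 12). The highest of those listed for CGRP was Crcp (11.3 ± 1.24), a component protein and not the receptor itself. Calcrl, the calcitonin receptor-like receptor, was at 4.73 ± 0.809 CPM per kb (SD, n = 12). Cckbr was the highest for cholecystokinin (4.33 ± 0.604) and Npy1r for neuropeptide Y (4.19 ± 0.586). Galr1 was the highest for galanin (1.13 ± 0.215) and Nmur2 for neuromedin U (0.543 ± 0.156). Ramp1 followed Crcp at 9.93 ± 3.77 CPM per kb (SD, n = 12), below it in 10 of 12 mice. Sort1, a sorting receptor that also binds neurotensin, was at 35.5 ± 2.47 CPM per kb (SD, n = 12). Gpr160, proposed as a receptor of CART, was at 0.198 ± 0.0556 CPM per kb (SD, n = 12). Ramp1, which joins the calcitonin receptor-like receptor to form the CGRP receptor, was at 53.1 and 50.9 CPM in saline males 1 and 2, at 17.6 CPM in saline male 3, and between 19.96 and 32.1 CPM in the other 9 mice. Nmur2 rose in morphine males, from 1.16, 1.22, and 1.23 CPM to 2.48, 1.51, and 2.37 CPM (log2 fold change 0.79, SE 0.26, adjusted p = 0.9999 by edgeR), without overlap, as held for 8.86% of all genes. The interaction for Nmur2 was 1.02 (SE 0.38, adjusted p = 0.985 by edgeR), and females were at 1.48, 2.45, and 2.26 CPM in saline and 1.45, 2.15, and 1.77 CPM in morphine mice. In the interaction 1 of the 19 genes of this list was called, beside 2.94% of all genes. Ramp3 was lower in females than in males by 0.60 on the log2 scale (log2 difference −0.60, SE 0.25, adjusted p = 0.734 by edgeR). It was the 1 gene of 19 on this list called between the sexes, beside 3.94% of all genes. Females lay between 0.885 and 1.17 CPM. Saline males were at 1.93, 1.81, and 0.675 CPM and morphine males at 1.197, 1.25, and 2.16 CPM, so the groups overlapped. The highest, saline males 1 and 2 and morphine male 6 (the library with Xist), also had the highest GC balance. Ramp3 is GC-rich (55.7%), and the part of GC balance in this difference was not tested.

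Genes for peptide processing, storage, and release were among the most abundant of those listed, led by Cpe, the carboxypeptidase that trims peptide precursors (491 ± 48.9 CPM per kb, SD, n = 12). None of the 13 passed in the sex-combined or female comparison, and 2 of 13 fell in males, beside 2.99% of all genes called in either direction, where the list's median log2 fold change was −0.05. Pcsk1n, which encodes an inhibitor of the prohormone convertase PCSK1, had a log2 fold change of −1.83 in males (SE 0.67, adjusted p = 0.9999 by edgeR). It stood at 42.0 and 56.6 CPM in saline males 1 and 2 and at 6.78 CPM in saline male 3, with 8.38, 9.15, and 12.6 CPM in morphine males, so saline male 3 was below all morphine males. Exons of Pcsk1n, like those of Dpp4, overlap a gene on the opposite strand. Scg5, the PCSK2 chaperone, fell from 419, 383, and 432 CPM to 346, 333, and 344 CPM, without overlap as in 8.86% of all genes (log2 fold change −0.30, SE 0.11, adjusted p = 0.9999 by edgeR). Of the 6 peptidases, Ece2 alone was called in males, where it rose (0.66, SE 0.19, adjusted p = 0.9999 by edgeR), beside 2.99% of all genes. Its annotation overlaps another gene on the same strand. Dpp4, a peptidase that cleaves neuropeptide Y, fell in females from 6.83, 5.63, and 6.88 CPM to 3.57, 5.19, and 3.44 CPM (log2 fold change −0.67, SE 0.20, adjusted p = 0.9998 by edgeR). It was the 1 peptidase of 6 called in females, beside 1.81% of all genes. Among 3 related peptide genes tested of 8 listed, Pyy, a member of the neuropeptide Y family, rose in females (1.27, SE 0.44, adjusted p = 0.9998 by edgeR), from 0.314 to 0.639 CPM in saline mice to 0.677 to 1.63 CPM in morphine mice. Pyy was the 1 of these 3 called there, beside 1.81% of all genes. For Dpp4 and Pyy the female groups did not overlap, as held for 5.67% of all genes. In the interaction, Pcsk1n (−2.16, SE 0.77), Ece2 (0.94, SE 0.31), and Pyy (−1.89, SE 0.82) were called at an unadjusted p, beside 2.94% of all genes. Pyy rested on only 9 to 55 reads per library. It was at 1.63 and 1.11 CPM in saline males 1 and 2 and at 0.276 CPM in saline male 3. Pyy (58.5% GC) and Pcsk1n (57.3%) are GC-rich, and saline males 1 and 2 had the highest GC balance. The part of GC balance in these values was not tested.

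The genes most like each member over the 12 mice were sought among 15056 genes with a mean of at least 1 CPM, as a description of libraries that share depth and GC balance. Gal was most like 1810058I24Rik (r = 0.95) and Gm13375 (r = 0.94). Npy was most like Lbh (r = 0.98) and Drd2 (r = 0.96), and Cck most like Selenom (r = 0.99) and Znhit1 (r = 0.99). As many as 2025 genes had r of at least 0.9 with Cck and 392 with Cartpt, against 20 with Gal, 60 with Npy, 7 with Nts, 2 with Nmu, 1 with Calcb, and 0 with Calca. Cartpt was nearest to 1700001P01Rik (r = 0.96) and Noc4l (r = 0.96), and Nts to Nmi (r = 0.94) and Lypd6 (r = 0.92). Calca was nearest to Asb1 (r = 0.89) and Usb1 (r = 0.88), Calcb to Dusp23 (r = 0.91) and CT010467.1 (r = 0.89), and Nmu to Gm4419 (r = 0.92) and Lactb (r = 0.90).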

How the data were processed

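Poly-A RNA-seq was done on the brainstem of 12 mice, and the deposited values are raw read counts per gene that the authors obtained with Trimmomatic, STAR (mm10), and featureCounts. The sources used here give neither versions nor the strand setting. Groups, sex, and replicate numbers came from the sample labels. The label text on RNA extraction names spinal cord, whereas the tissue label names brainstem. Dam, a covariate of the study, was not used here.

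Tests used edgeR 4.0.16 in R 4.3.3 (glmQLFit and glmQLFTest, TMM, filterByExpr). A gene was called at an unadjusted p under 0.05 with an absolute log2 fold change over 0.26, the thresholds of the study, with Benjamini-Hochberg adjusted p values over all genes beside it. Sex was a covariate in the sex-combined fit, each sex was also fitted alone, and the interaction and the sex term used all 12 mice. CPM used TMM factors, with a prior count of 2 for logs. Fits were tested on simulated data. Alternatives were DESeq2 1.42.0, exactTest, other scalings, filters and thresholds, a replicate block, leaving out each mouse, and, chosen after seeing the data, loess offsets (span 0.5) for GC content and exon length from GENCODE M21. Correlations used log2 CPM with 100000 resamples, two-sided, or all 1296 permutations within groups. Total counts were 27850565 to 48097947 per library.

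The members, gene lists, and rules were chosen with earlier results of these data known. Named were the 8 members, list genes called in a comparison (up to 6 each), markers beside a result, and the 2 genes most like each member. The receptor or receptor-activity gene with the highest level per kilobase was also named for each peptide. Ramp1, Calcrl, Sort1, Cpe, Slc6a5, Slc6a3, Scn10a, Mrgprd, Xist, and Uty were named after their values were seen. With 3 mice against 3, p values rest on the spread between these mice.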

Additional observations from a re-analysis of the deposited data

Results flagged for a closer look

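The response of Gal passed the test of the interaction of treatment and sex, at −0.90 on the log2 scale for the male change less the female change (adjusted p = 0.985 by edgeR), where 2.94% of all genes passed the same test. The call was lost in 8 of 12 fits that left out 1 mouse, with scaling by total counts, and with at least 10 counts required in every library. Calca in morphine male 5, at 9.61 CPM, lay apart from the other 5 morphine mice by Dixon's criterion (gap over range 0.678). Calcb in saline female 6, at 1.88 CPM, lay apart from the other 5 saline mice in the same way (gap over range 0.839). Chance flags about 1 in 20 such groups, and 16 groups were examined at both ends.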

How the results depend on the processing

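The count of neuropeptide genes called in the sex-combined comparison stayed at 0 under every alternative, including the replicate block. Same-numbered saline and morphine mice differ in sex, and their deviations had correlations of −0.356 to 0.18 with no number nearest to its own partner. The check gave no sign that numbers pair mice, but it cannot exclude shared litters, as no label gives the dam. The block was therefore not read as a pairing. In females the count was 0 under all alternatives but leaving out 1 mouse (0 to 1). In males it was 1, and 0 with scaling by total counts or with the adjusted p, and 0 to 4 leaving out 1 mouse. The interaction count was 1, and 0 with scaling by total counts, at least 10 counts in every library, or the adjusted p, and 0 to 4 leaving out 1 mouse. The count between sexes was 1, and 0 without a filter on low counts or with the adjusted p, and 0 to 2 leaving out 1 mouse. Of the correlated pairs, 9 fell to 2 with GC and length offsets, and leaving out 1 mouse gave 1 to 11 (1 without saline male 2, 2 without saline female 6, 3 without saline male 1, 5 without morphine male 5). The cause was not tested.

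Some uncalled directions turned. With scaling by total counts Cartpt was 0.0135 in the sex-combined comparison. With GC and length offsets Gal (−0.0007) and Npy (−0.0468) in females and Nts (−0.0654) in the interaction turned. Leaving out 1 mouse moved the sex-combined log2 fold change of Calca from −0.10 to 0.13, Cartpt from −0.17 to 0.0845, and Cck from −0.24 to 0.0205. In females it moved Calcb from −0.14 to 0.21, Gal from −0.0834 to 0.32, Npy from −0.17 to 0.21, and Nmu from −0.22 to 0.20. In males it moved Nts from −0.33 to 0.11, and in the interaction Nts from −0.10 to 0.28 and Nmu from −0.48 to 0.0007. Of 572 single-gene values under an alternative, 510 kept their direction and side of the threshold.

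Over all genes, calls went from 221 to 754 (sex-combined), 328 to 1094 (females), 543 to 985 (males), 559 to 1665 (interaction), and 733 to 2321 (sex) without a filter on low counts. With GC and length offsets they went to 1189 in males and 1026 in the interaction. Leaving out 1 mouse gave 177 to 458 (sex-combined), 208 to 1482 (females), 253 to 5341 (males), 290 to 4695 (interaction), and 330 to 3947 (sex), the highest without saline male 3 in all but females, where saline female 4 was left out. With the contrast from the fit of all 12 mice 218 genes were called in females. With edgeR's adjusted p, 0 genes were called in the sex-combined, female, male, and interaction comparisons (246, 343, 543, and 559 at an unadjusted p under 0.05) and 5 between the sexes.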
